A study of Mus musculus with 2 samples.

Results

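The genes described here encode the ligands and receptors of 3 axon guidance systems: the ephrins and their Eph receptors, the semaphorins and their plexin receptors, and the Slits and their Robo receptors. They were chosen by symbol, with no measured value used: protein-coding genes of the mouse GENCODE annotation named Epha or Ephb, Efna or Efnb, Sema, Plxna to Plxnd, Slit or Robo followed by a number. The rule found 58 of 21884 protein-coding genes, 31 ligand genes and 27 receptor genes in 10 families.

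Open chromatin had been mapped by DNase-seq, in which the enzyme DNase I cuts accessible DNA in isolated nuclei and the cut ends are sequenced. The data are 2 libraries of a single group, left cerebral cortex of adult male B6CASTF1/J mice aged 18 to 20 months, a hybrid of a C57BL/6 strain and the wild-derived CAST strain, with no second condition. The labels give both libraries the same donor entry and separate tissue samples, so whether 2 animals were used is not stated and the spread between replicate 1 and replicate 2 may be technical. No test between conditions is possible, and every result is a description of these libraries.

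Guidance ligands steer growing axons by attraction or repulsion, and a growth cone reads them through receptors that act on the actin cytoskeleton. Ephrins sit on the cell surface and bind Eph receptor tyrosine kinases on a neighbouring cell, so that both cells can receive a signal. Semaphorins are secreted or bound to the membrane and act through plexins, and Slits are secreted and act through Robos. In the adult cortex many of these proteins remain at synapses, on glia and on blood vessels.

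For each library the deposited files hold a list of peaks (accessible regions) with 1 signal value per peak, which is the authors' own value, and a list of footprints (short stretches protected from cutting). Peaks within 1 kb of a transcription start site (TSS) of a gene were taken as its promoter peaks. Its distal peaks lay over 1 kb from every annotated TSS, in the gene body or its flanks of 10 kb. Replicate 1 had 73221 peaks and 264450 footprints, and replicate 2 had 111105 peaks and 385637 footprints. Read totals were not used, so depth is known only through these numbers of calls. As a check of the tissue, promoter peaks of both libraries were sought at marker genes. They were found at 7 of 7 pan-neuronal and 6 of 6 excitatory cortical marker genes, against 0 of 8 markers of non-brain tissues. Over all genes the share was 58.7%. These lists differ in CpG near the TSS, with median ratios of observed to expected CpG of 0.549, 0.464 and 0.272. How far the contrast goes with CpG content was not tested. The marker lists were set with earlier results of these data known, so the check is not an independent one. Markers of other cell types of the cortex were mixed: 1 of 4 for inhibitory neurons, 2 of 5 for astrocytes, 5 of 6 for oligodendrocytes, 1 of 4 for microglia, 1 of 4 for endothelium and 2 of 4 for mural and meningeal cells. In bulk tissue, fewer cells of a type with an open region and less accessibility per cell cannot be told apart.

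The sequences of 6 accessible regions are shown because the results below turn on them: the strongest promoter region of the set (Ephb3), the next by mean signal (Efnb2), 2 promoter regions with a rare motif word that footprints cover in part (Sema4b) or whole (Plxnb2), the strongest distal region (Sema3b) and a distal region with a CTCF match (Slit1). They are the bounds called in replicate 1, read from the RefSeq GRCm38.p6 (mm10) genome on the + strand, 5′ to 3′. Capitals mark bases that lay inside a footprint in both libraries, and lower case marks all other bases.
Ephb3 promoter, chr16:21204381-21204540: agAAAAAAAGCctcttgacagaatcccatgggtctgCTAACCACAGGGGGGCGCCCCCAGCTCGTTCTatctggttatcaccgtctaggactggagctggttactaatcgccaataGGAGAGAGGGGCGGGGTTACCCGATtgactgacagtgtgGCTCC
Efnb2 promoter, chr8:8661221-8661440: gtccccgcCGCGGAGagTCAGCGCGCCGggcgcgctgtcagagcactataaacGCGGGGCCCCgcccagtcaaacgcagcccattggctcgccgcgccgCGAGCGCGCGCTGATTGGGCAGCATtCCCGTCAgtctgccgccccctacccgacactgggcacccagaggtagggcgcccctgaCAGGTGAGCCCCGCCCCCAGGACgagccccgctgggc
Sema4b promoter, chr7:80187061-80187240: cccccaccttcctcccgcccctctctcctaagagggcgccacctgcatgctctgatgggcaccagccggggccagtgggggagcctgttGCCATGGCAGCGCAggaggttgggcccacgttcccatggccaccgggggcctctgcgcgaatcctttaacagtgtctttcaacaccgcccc
Plxnb2 promoter, chr15:89169561-89169760: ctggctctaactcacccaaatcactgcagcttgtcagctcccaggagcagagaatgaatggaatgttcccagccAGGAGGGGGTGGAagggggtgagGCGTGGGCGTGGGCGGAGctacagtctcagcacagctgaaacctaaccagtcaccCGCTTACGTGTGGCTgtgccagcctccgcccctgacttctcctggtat
Sema3b distal, chr9:107612721-107612900: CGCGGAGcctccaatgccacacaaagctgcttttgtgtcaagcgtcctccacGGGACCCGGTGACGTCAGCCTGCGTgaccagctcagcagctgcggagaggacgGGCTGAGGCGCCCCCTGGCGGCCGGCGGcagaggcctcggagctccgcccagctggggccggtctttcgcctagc
Slit1 distal, chr19:41647061-41647260: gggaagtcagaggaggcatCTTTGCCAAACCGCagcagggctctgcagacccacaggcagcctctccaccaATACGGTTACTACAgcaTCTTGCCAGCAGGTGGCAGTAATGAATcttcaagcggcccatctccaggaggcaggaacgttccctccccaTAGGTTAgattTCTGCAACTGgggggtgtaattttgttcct

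Most guidance genes had an open promoter in the aged cortex. A promoter peak was found at 51 of 58 genes in replicate 1 (87.9%) and at 52 of 58 in replicate 2 (89.7%), against 60.7% and 61.2% of all 21884 protein-coding genes. Both libraries had a promoter peak at 50 guidance genes (86.2%), against 58.7% of all genes. Ligands and receptors were alike in this count, with 27 of 31 ligand genes and 23 of 27 receptor genes open in both libraries. All EphB receptors (5 of 5), ephrin-Bs (3 of 3), class 4 semaphorins (6 of 6), class 5 to 7 semaphorins (7 of 7) and Slits (3 of 3) were open in both libraries. The shares were 7 of 9 for EphA receptors, 3 of 5 for ephrin-As, 5 of 7 for class 3 semaphorins, 8 of 9 for plexins and 3 of 4 for Robos.

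Promoter peaks depend strongly on CpG content across the genome, and guidance promoters were richer in CpG than most. The ratio of observed to expected CpG within 500 bp of the 5′-most TSS had a median of 0.692 over the guidance genes and 0.571 over all genes. In the lowest decile of this ratio 3.97% of all genes had a promoter peak in replicate 1 and 6.30% in replicate 2. The highest decile reached 96.6% and 95.2%. If all genes had the CpG deciles of the guidance genes, 80.7% in replicate 1 and 80.0% in replicate 2 would have a promoter peak, which lies below the 87.9% and 89.7% of the guidance genes and well above the genome-wide share. No test was made of the remaining gap.

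**Figure D1:**
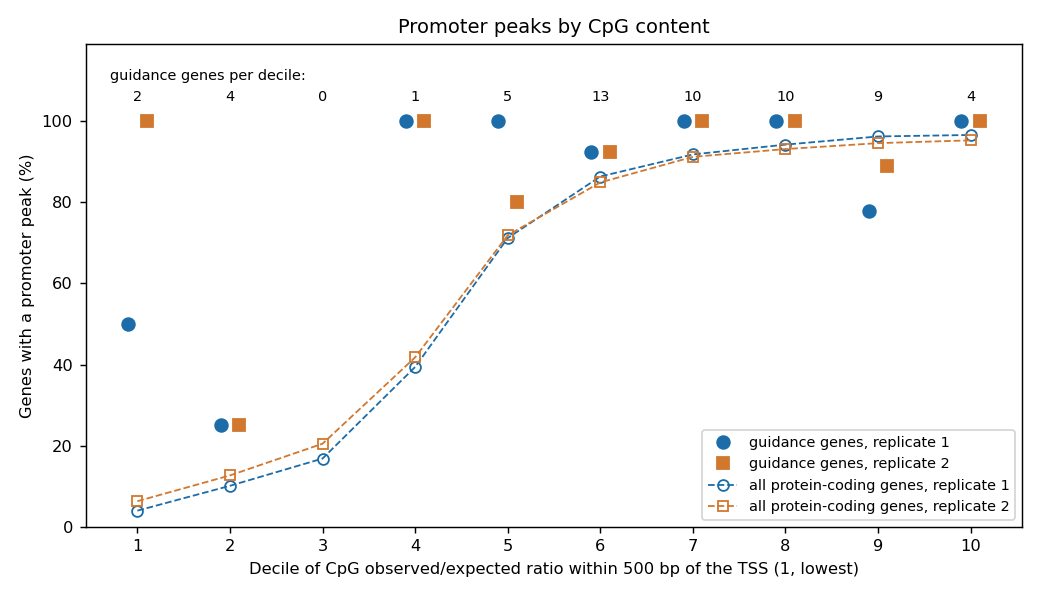
Share of genes with a promoter peak (y axis, percent) by decile of the observed over expected CpG ratio around the TSS (x axis), for guidance genes (filled symbols) and all protein-coding genes (open symbols, dashed lines) in replicate 1 (blue circles) and replicate 2 (orange squares); the numbers of guidance genes per decile stand above. The share over all genes climbs with CpG to 96.6% and 95.2%, and most guidance genes sit in deciles 5 to 10.

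The accessible regions at guidance promoters were weaker than those of a typical open promoter. The strongest promoter peak of a gene had a median signal of 2.01 in replicate 1 and 1.54 in replicate 2 over the guidance genes that had a peak, against 3.82 and 2.88 over all genes that had a peak. Over the genes open in both libraries the median of the mean signal was 1.88 for the guidance genes and 3.54 for all genes. Of the 50 guidance genes open in both, 41 lay below the all-gene median and 40 below the median of their own CpG decile. The lower signal is therefore seen at matched CpG content too. Taken once per guidance gene, the all-gene medians of their CpG deciles had a median of 3.90. These medians cover only genes with a peak. Signals of the 2 libraries followed each other across the 50 genes (Pearson's r of log2 signals 0.863, a description over genes that share 2 libraries).

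The libraries gave similar values for most members. The log2 difference of replicate 1 minus replicate 2 had a median of 0.30 over the 50 guidance genes and 0.32 over all genes open in both. The signal was higher in replicate 1 at 37 of the 50, and it lay within 2-fold at 46 of 50, against 93.6% of all genes. The exceptions were Plxnd1 (log2 difference 1.02), Robo3 (1.07), Sema4c (1.28) and Sema6b (1.43), all higher in replicate 1, so their levels are the least certain of the set.

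**Figure D2:**
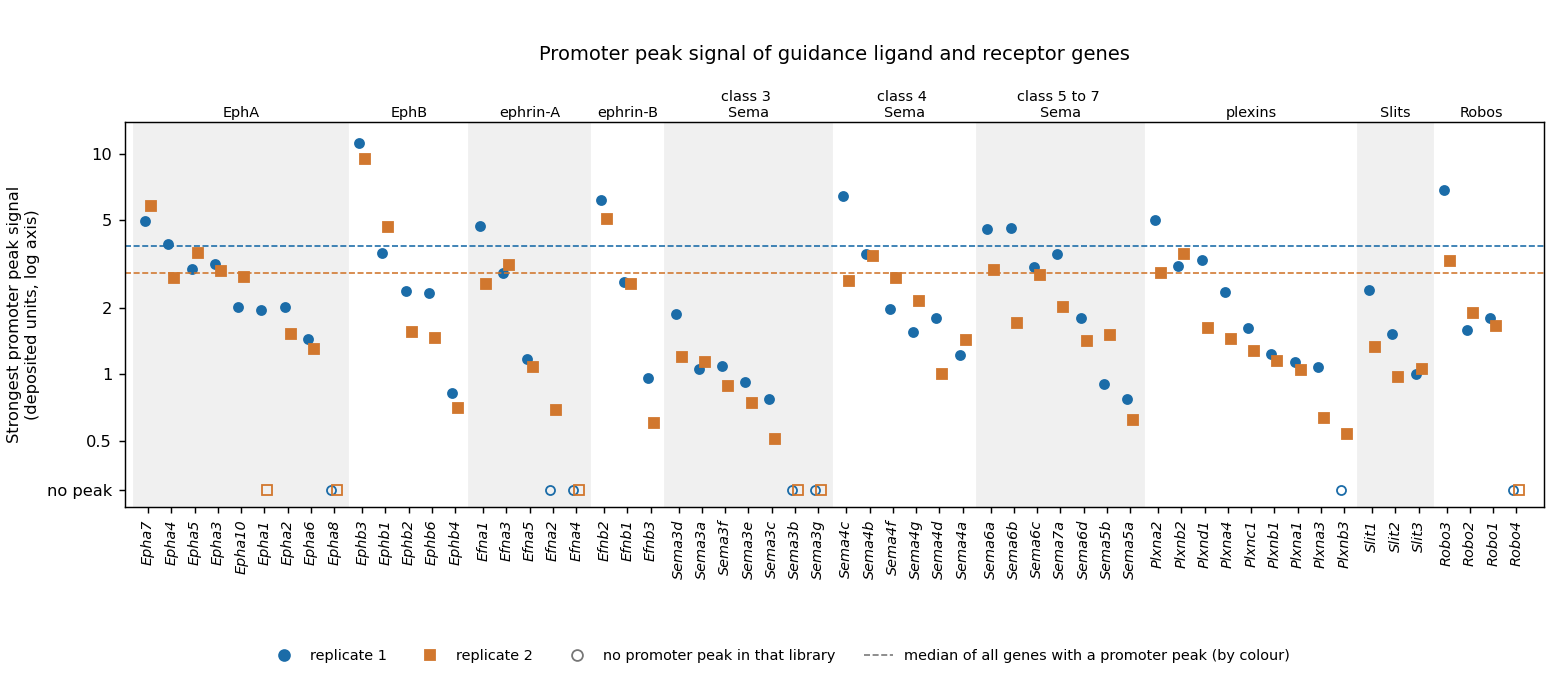
Signal of the strongest promoter peak (y axis, deposited units, log axis) of each of the 58 guidance genes (x axis, by family) in replicate 1 (blue circles) and replicate 2 (orange squares); open symbols at the bottom mark no promoter peak, and dashed lines are the medians of all genes with a promoter peak (3.82 and 2.88). Ephb3 stands highest at 11.2 and 9.44, and most other members lie below the dashed lines.

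Among the receptor tyrosine kinases of the Eph family, Ephb3 had by far the strongest promoter. Its best promoter peak had a signal of 11.2 in replicate 1 and 9.44 in replicate 2 (10.3 ± 1.28, SD, n = 2), which placed it above 99.2% of all genes open in both libraries. Both libraries were high, and the peak shown above, 215 bp from the TSS in replicate 1, was extended in replicate 2 by a call of 380 bp that reached across the TSS. Of the 160 bases shown, 71 (44.4%) lay in footprints of both libraries. Ephb1 followed among the EphB genes with 3.55 and 4.66 (4.10 ± 0.784), while Ephb2 and the kinase-inactive Ephb6 lay between 1.45 and 2.40 in both libraries. Ephb4, best known from veins, was the lowest with 0.825 and 0.701.

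The EphA receptors, which bind mainly GPI-anchored ephrin-As, spread over a narrower range. Epha7 was the highest, with 4.97 in replicate 1 and 5.78 in replicate 2 (5.37 ± 0.573), and Epha6 the lowest of those open in both, with 1.45 and 1.31 (1.38 ± 0.102). Both ranks turned with a 2 kb window, in which Epha4 had a mean of 6.09 and Epha6 1.87, above the 1.77 of Epha2, and the rank of Epha6 also turned with all GENCODE transcripts (1.87). Epha4, which binds ephrins of both classes, had 3.89 and 2.74, and Epha3, Epha5, Epha2 and the kinase-inactive Epha10 lay between 1.53 and 3.55. The 2 remaining genes did not have a promoter peak in both libraries. Epha1 had a peak of 1.97 in replicate 1 alone, and Epha8 had none in either.

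Ligands of the Eph receptors ranged widely. Efnb2, a transmembrane ephrin that also marks arteries, had 6.16 in replicate 1 and 5.07 in replicate 2 (5.62 ± 0.771), the next mean after Ephb3. The SDs of Epha7, Robo3 and Sema4c overlapped it, and each of these was higher than Efnb2 in 1 library. Efnb2 also had a further promoter peak of 6.10 and 3.84, 699 bp from the TSS in replicate 1. Efnb1 lay at 2.62 and 2.57, and Efnb3 was the lowest ephrin-B with 0.963 and 0.601 (0.782 ± 0.256). Among the GPI-anchored ephrins, Efna1 had 4.73 and 2.56 (3.64 ± 1.54) and Efna3 had 2.87 and 3.12. These overlapped within their SDs. Efna5, a repellent of the retinotectal map, had 1.17 and 1.08 (1.13 ± 0.0660), the lowest of those open in both, and a mean of 1.96 with a 2 kb window. Efna2 had 0.687 in replicate 2 alone, and Efna4 had no promoter peak.

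The secreted class 3 semaphorins, most of which signal through neuropilins and plexin-As, had the weakest promoters of the 10 families by their median. It was 1.06 in replicate 1 and 0.881 in replicate 2. Sema3d was the highest with 1.88 and 1.19 (1.54 ± 0.485). Sema3c had the lowest mean of the 50 guidance genes open in both libraries, with 0.772 and 0.507 (0.640 ± 0.187), and tied with Sema5a in replicate 1. Sema3a, Sema3e and Sema3f lay between 0.741 and 1.14, so that no member of the class reached the all-gene median in either library. Sema3b and Sema3g had no promoter peak. Sema3b had 6.44 and 2.53 with all GENCODE transcripts, the highest of the class in both libraries. In replicate 1 this passed the all-gene median given above (3.82).

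The membrane-bound semaphorins included some of the stronger promoters. Sema4c had 6.47 in replicate 1 and 2.66 in replicate 2 (4.56 ± 2.69), and Sema4b had 3.52 and 3.44 (3.48 ± 0.0566). The SD of Sema4c spans the value of Sema4b, so their order is not fixed. Sema4d, a ligand of Plxnb1, had 1.81 and 1.01, and Sema4a was the lowest of class 4 by its mean, with 1.23 and 1.43 (1.33 ± 0.147), within the SD of Sema4d. With all GENCODE transcripts Sema4a had 1.70 and Sema4d 1.94, and Sema4a was still the lowest of class 4. Sema4f and Sema4g lay between 1.55 and 2.74. Among classes 5 to 7, Sema6a, a transmembrane ligand of plexin-As, was the highest by its mean, with 4.55 and 2.97 (3.76 ± 1.12), and Sema6b, with 4.61 and 1.71 (3.16 ± 2.05), overlapped it. Sema5a was the lowest with 0.772 and 0.621 (0.696 ± 0.107) within 1 kb of its TSS, but had 3.72 with a 2 kb window or all GENCODE transcripts and was then not the lowest. Sema5b, Sema6c and Sema6d lay between 0.904 and 3.07, and Sema5b had a mean of 0.729 with a 500 bp window, against 1.20 with 1 kb. Sema7a, the GPI-anchored semaphorin that binds Plxnc1, had 3.53 and 2.03, and its receptor gene had 1.63 and 1.28, or a mean of 3.42 with all GENCODE transcripts, against 1.46 with the basic set and above the 3.30 of Plxnb2.

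Plexins, the semaphorin receptors, were led by Plxna2, a plexin-A, with 5.001 in replicate 1 and 2.90 in replicate 2 (3.95 ± 1.49), and Plxnb2, with 3.09 and 3.50 (3.30 ± 0.294). The 2 overlapped within their SDs, and Plxnb2 had a mean of 1.78 with a 500 bp window, below the 2.47 of Plxnd1. Plxna3 was the lowest of those open in both, with 1.08 and 0.634 (0.858 ± 0.317), and Plxna1, Plxna4, Plxnb1 and Plxnd1 lay between 1.04 and 3.31. Plxnb3 had 0.534 in replicate 2 alone. Plxna3 and Plxnb3, like Efnb1, lie on the X chromosome, of which males carry a single copy. Any link of copy number to signal was not tested.

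Among the secreted Slits, Slit1 had 2.42 in replicate 1 and 1.33 in replicate 2 (1.87 ± 0.773), Slit2 had 1.52 and 0.968, and Slit3 had 1.00 and 1.06 (1.03 ± 0.0411). The mean of Slit3 was 2.36 with a 2 kb window and 2.39 with all GENCODE transcripts, above Slit1 in both. Of the Robo genes, Robo3, known from commissural axons crossing the midline, was the highest with 6.86 and 3.27 (5.06 ± 2.54). This came from an intronic peak that lay 547 bp from a TSS in replicate 1. With a 500 bp window Robo3 had no promoter peak in either library. Robo1 and Robo2, the main Slit receptors of neurons, lay at 1.81 and 1.66 and at 1.59 and 1.90. Their values cannot be ordered. Robo4, a receptor of endothelium, had no promoter peak.

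The 8 guidance genes without a promoter peak in both libraries were a mixed group. Efna4, Epha8, Robo4, Sema3b and Sema3g had none in either library, Epha1 had one in replicate 1 alone, and Efna2 and Plxnb3 had one in replicate 2 alone. Robo4, Sema3b and Sema3g had low CpG ratios (0.162, 0.169 and 0.177), while Efna4 (0.602) and Epha8 (0.882) did not. The authors' per-base q-values (false discovery rates), listed up to 0.05, gave a finer view. Epha8 had a lowest q-value of 0.0024 within 1 kb of its TSS in replicate 1 and 0.00138 in replicate 2, over 225 and 227 listed bases. Sema3g had 0.0059 and 0.0285 over 126 and 19 bases. Efna4, Robo4 and Sema3b had no listed base in either library. Of all genes without a promoter peak in either library, 9.17% had a listed base in replicate 1 and 11.4% in replicate 2.

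Genes called in a single library had listed bases in the other as well. Efna2 had a lowest q-value of 0.0172 in replicate 1 and 7.46e-09 in replicate 2, Plxnb3 had 0.0085 and 4.01e-05, and Epha1 had 1.19e-08 and 0.000847. In the longer, wider peak list that the authors deposited for each library, 54 of 58 guidance genes had a promoter peak in both libraries, against 63.3% of all genes. Epha1, Epha8, Efna2 and Plxnb3 were then open in both, Sema3g in replicate 1 alone, and Efna4, Robo4 and Sema3b in neither.

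Sema3b, a secreted semaphorin without a promoter peak, had a strong accessible region inside the gene. An intronic peak at chr9:107602141-107602320 had a signal of 6.44 in replicate 1 and 2.53 in replicate 2 and lay 3082 bp from the nearest TSS of the annotation used. A further Sema3b transcript, outside GENCODE's basic set, starts within this peak. With all GENCODE transcripts Sema3b therefore had a promoter peak, and Efna4, Epha8, Robo4 and Sema3g still had none.

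Guidance genes often had several promoter peaks, and the strongest often lay beside the TSS rather than on it. The strongest promoter peak covered a TSS at 27 of 51 guidance genes in replicate 1 (52.9%) and 28 of 52 in replicate 2 (53.8%), against 68.6% and 67.2% of all genes with a promoter peak. It lay 919 bp from the TSS at Efna1, 928 bp at Plxnb2 and 979 bp at Sema4g in replicate 1. The guidance genes with a promoter peak had a mean of 2.20 such peaks in replicate 1 and 2.25 in replicate 2, against 1.86 and 1.88 over all genes. Sema6d, a transmembrane semaphorin with 5 TSSs, had 8 in replicate 1 and 5 in replicate 2, Efna5 had 6 in both libraries, and Sema4c had 4 and 6. Some calls of a library overlapped each other, at 10.7% and 16.2% of the guidance promoter peaks against 3.77% and 6.08% of all promoter peaks, so these numbers per gene count some regions more than once.

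Promoter peaks of guidance genes were found in both libraries about as often as those of all genes. Of 112 guidance promoter peaks in replicate 1, 87.5% had an overlapping counterpart in replicate 2, as did 82.1% of the 117 in replicate 2 the other way. The shares over all promoter peaks were 83.6% and 80.8%. A footprint lay wholly inside 84.8% and 82.9% of the guidance promoter peaks, against 80.5% and 78.5% of all. Footprints were slightly sparser along them, with 10.9 and 9.94 per kb of peak against 12.6 and 11.99 per kb.

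Sema6d had the most promoter footprints by the sum of both libraries, 16 in replicate 1 and 34 in replicate 2, over its many promoter peaks. Plxnc1 had 9 and 30, Plxnb2 18 and 12, Sema4b 12 and 14, Slit2 9 and 14, and Ephb3 8 and 13, with Ephb6 at the same sum as Ephb3 (4 and 17). The libraries did not give the same order, and at Plxnc1 and Sema6d most of the sum came from replicate 2. Footprints were summed over the promoter peaks of a gene, so those inside overlapping calls were counted more than once. Such overlaps were found at 10.7% of the guidance promoter peaks in replicate 1 and 16.2% in replicate 2. How far they go with this order or with the higher numbers in replicate 2 was not tested.

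Short motif words were searched in the peaks on both strands as a description of sequence, not of binding. The SP/KLF word GGGCGGGG was the most frequent, in 25.0% of the guidance promoter peaks in replicate 1 and 23.1% in replicate 2, against 24.5% and 22.1% of all promoter peaks. None of the 112 and 117 guidance promoter peaks held the NRF1 word GCGCATGCG, the ETS word CCGGAAGT or the YY1 word AAGATGGCG. Over all promoter peaks these were in 2.54% and 2.34%, in 4.81% and 4.61% and in 2.23% and 2.03%. The same 3 words were absent from 67 RefSeq promoters (300 bases each, GRCm38) that matched 51 of the guidance genes, and they were in 2.45%, 5.34% and 1.92% of all 20128 RefSeq promoters. In those promoters the SP/KLF word was in 43.3% for the guidance genes and 24.4% for all. This word is GC-rich, guidance promoters were richer in CpG than most, and no comparison at matched CpG was made. No match says only that these letters were not in the window.

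**Figure D3:**
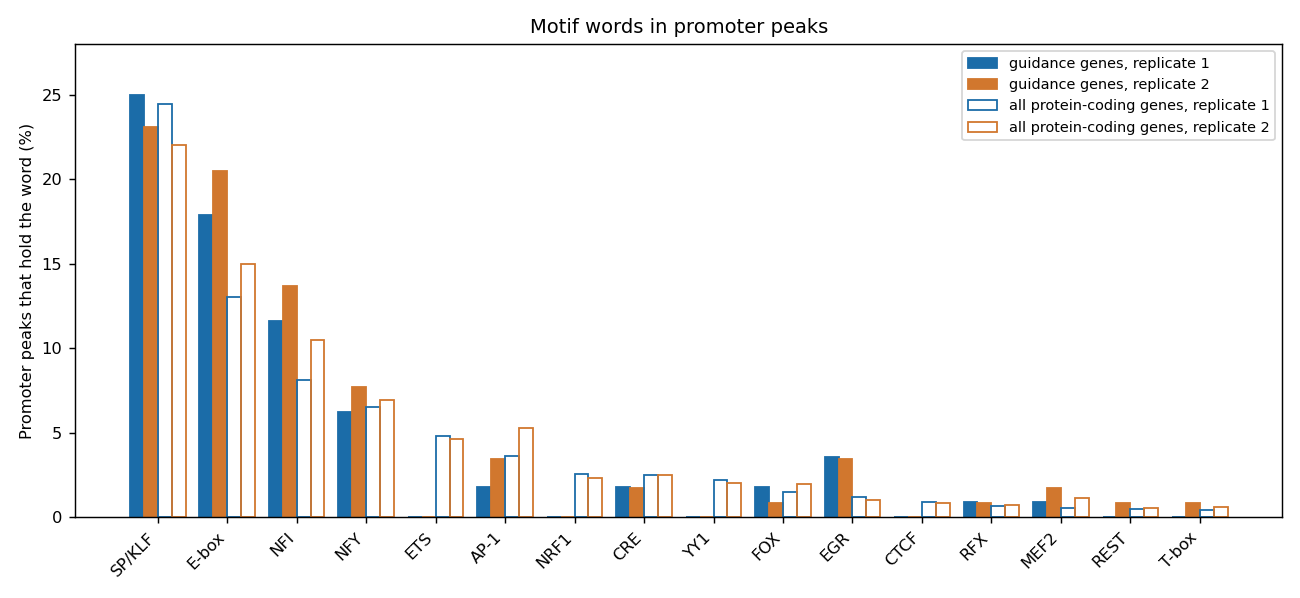
Share of promoter peaks that hold each motif word (y axis, percent) for 16 words (x axis), in guidance genes (filled bars) and all protein-coding genes (open bars), in replicate 1 (blue) and replicate 2 (orange). The ETS, NRF1 and YY1 words are at 0 in the guidance genes, and the SP/KLF word is at 25.0% and 23.1%.

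The EGR word GCGTGGGCG, of a family of activity-induced zinc finger factors, was in 4 guidance promoter peaks in each library (3.57% and 3.42%), against 1.17% and 1.02% of all promoter peaks. The genes with the word in both libraries were Efna3, Plxna2 and Plxnb2, and at all 3 it lay in a footprint in both. Of all its matches in guidance promoter peaks, 4 of 5 in replicate 1 and 5 of 5 in replicate 2 had the midpoint in a footprint. Over all promoter peaks these shares were 71.8% and 76.2%, so a match in a footprint is usual for this word. The Plxnb2 region shown above, in an intron 928 bp from the nearest TSS, holds 2 overlapping copies at positions 98 to 106 and 104 to 112, counted from 1 at the first base shown, wholly inside footprints of both libraries. With 4 peaks the share rests on few regions. The EGR and SP/KLF words share a run of letters, so that a GC-rich stretch can hold both.

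Other words stood in single regions. The Ephb3 region holds the SP/KLF word at positions 125 to 132, and the Efnb2 region holds it on the − strand at 60 to 67 and 192 to 199 together with the NFY word CCAATCA on the − strand at 111 to 117. All of these were wholly inside footprints of both libraries, other than the Efnb2 copy at 60 to 67, of which 4 bases were. The RFX word GTTGCCATG was in 1 guidance promoter peak in each library, that of Sema4b, at positions 87 to 95, with 6 bases in footprints of both libraries. It was in 0.681% and 0.729% of all promoter peaks.

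Away from promoters, guidance genes carried more accessible regions per length than most genes, and the gap was smaller at matched gene length. At least 1 distal peak was found at 50 of 58 guidance genes in replicate 1 and 53 of 58 in replicate 2, against 58.3% and 67.4% of all genes. Per 100 kb the guidance genes had a median of 3.49 distal peaks in replicate 1 and 5.23 in replicate 2 (4.36 ± 1.23, SD, n = 2), against 1.73 and 3.18 over all genes. Guidance genes are long, with 24 of 58 in the longest decile of all genes. Each guidance gene was also given the all-gene median of its own length decile, and these values had medians of 1.96 and 3.65. Above the median of their own decile lay 40 of 58 guidance genes in replicate 1 and 35 of 58 in replicate 2. Within the longest decile the guidance genes had medians of 2.19 and 3.59, against 1.96 and 3.90 over all genes of that decile, with the order turned between the libraries.

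**Figure D4:**
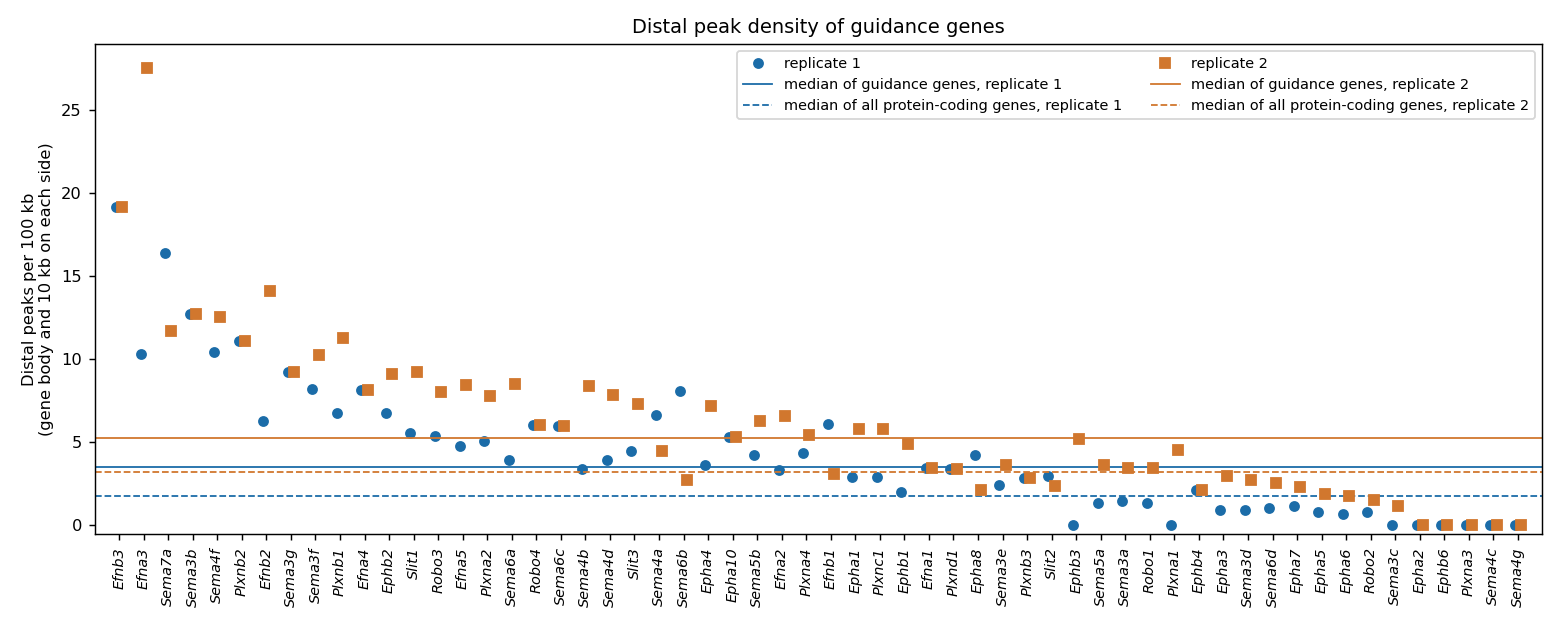
Density of distal peaks (y axis, number per 100 kb of the gene and its 10 kb flanks) for each guidance gene (x axis, by the mean of both libraries) in replicate 1 (blue circles) and replicate 2 (orange squares); solid lines are the medians of the guidance genes (3.49 and 5.23) and dashed lines those of all protein-coding genes (1.73 and 3.18). Efnb3 and Efna3 stand highest, and 5 genes are at 0 in both libraries.

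The highest densities belonged to short genes with few peaks. Efnb3 had 19.1 per 100 kb in both libraries, from 5 peaks each, but only 1 of them in each library lay inside Efnb3. In replicate 1, 3 lay in introns of the neighbouring gene Dnah2 and 1 in a coding exon of Wrap53. Efna3 had 10.3 in replicate 1 and 27.5 in replicate 2 (3 and 8 peaks), Sema7a 16.4 and 11.7 (7 and 5 peaks), Sema3b 12.7 in both (4 peaks each), Sema4f 10.4 and 12.5 (5 and 6 peaks), and Plxnb2 11.1 in both (5 peaks each, 2 of them inside the neighbour Mapk11). With counts this small a single call moves the density by several units. Epha2, Ephb6, Plxna3, Sema4c and Sema4g had no distal peak in either library.

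In absolute number the long genes led. Slit3 had 27 distal peaks in replicate 1 and 44 in replicate 2, of which 23 and 22 overlapped a peak of the other library. Plxna4, a plexin-A of developing axons, had 20 and 25, Efna5 had 14 and 25, Robo1 10 and 26, Ephb2 14 and 19, and Ephb1 9 and 22. All had more in replicate 2, the library with the longer peak list. At Ephb2 all 14 peaks of replicate 1 were found again in replicate 2, and 14 of the 19 in replicate 2 overlapped a peak of replicate 1. At Robo1 the only TSS of the annotation's basic set lies 355 kb inside the gene record, and both promoter peaks of each library sat there.

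**Figure D5:**
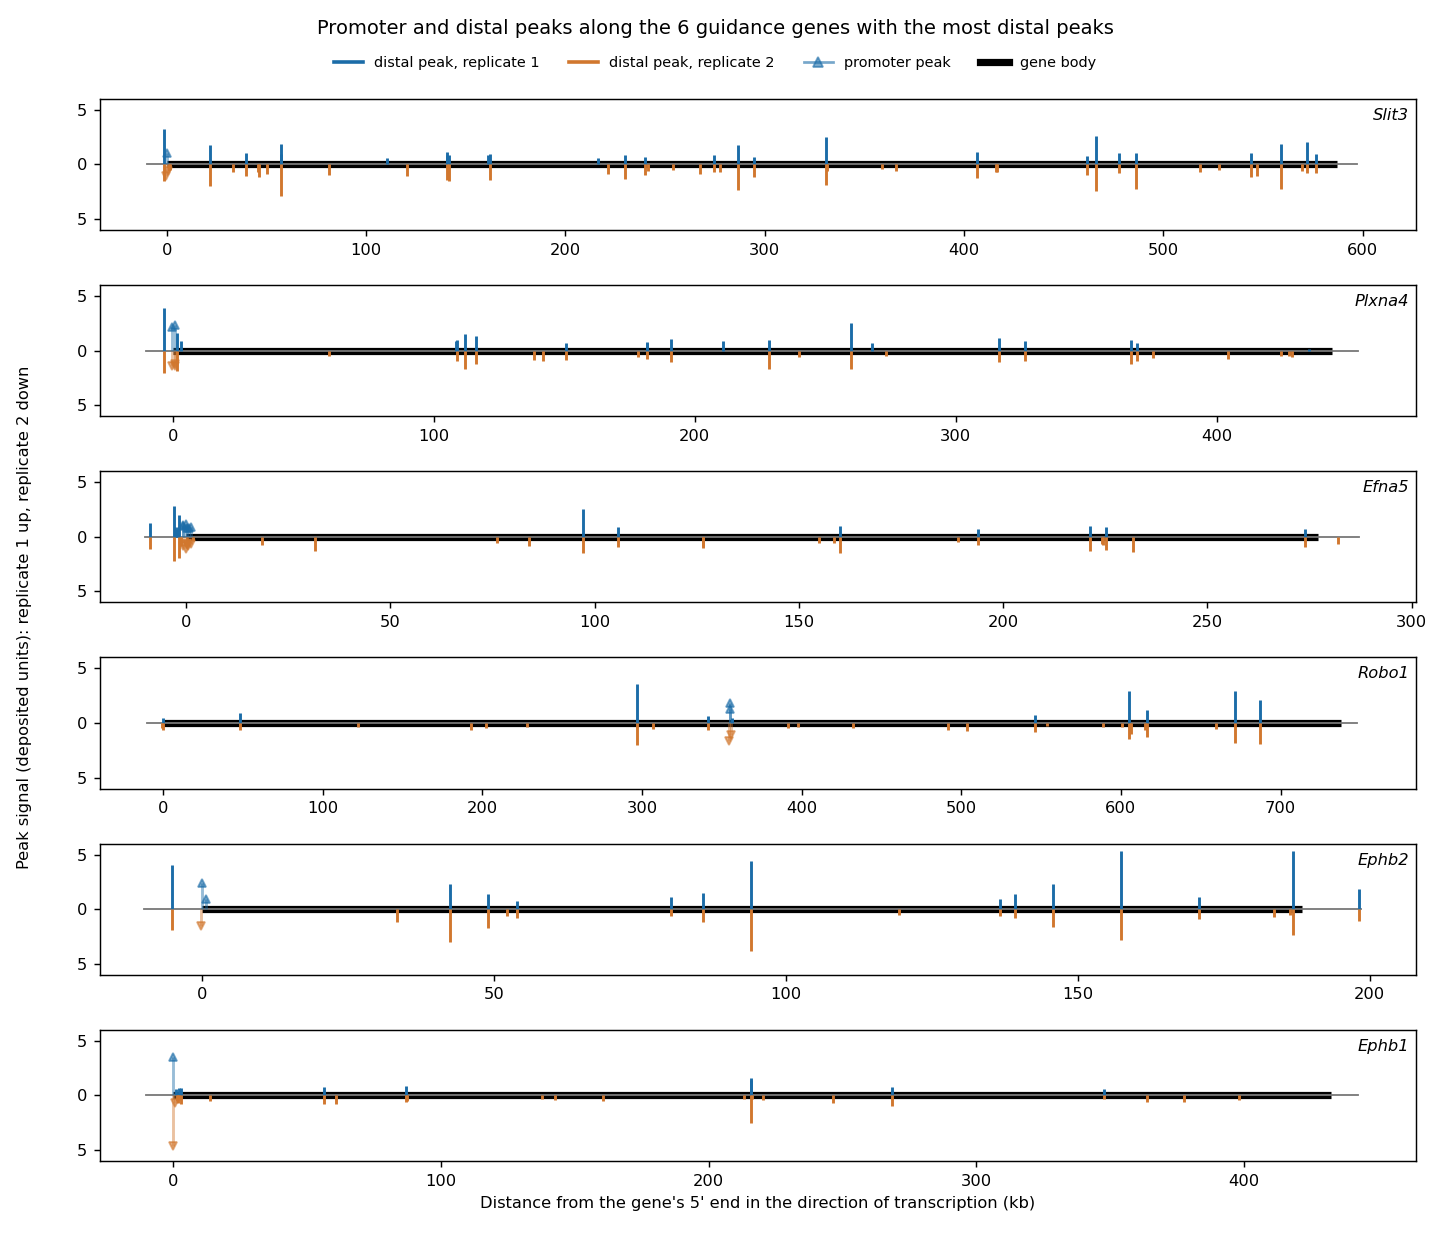
Peaks along the 6 guidance genes with the most distal peaks, by distance from the 5′ end of the gene record in the direction of transcription (x axis, kb), with signal in deposited units (y axis) upward for replicate 1 (blue) and downward for replicate 2 (orange); triangles mark promoter peaks and the black bar is the gene body. Along Ephb2 all 14 distal peaks of replicate 1 overlap a peak of replicate 2, which has 19. The promoter peaks of Robo1 lie 355 kb inside the gene.

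Distal peaks of guidance genes resembled distal peaks in general by overlap between the libraries, signal and footprints. There were 268 in replicate 1 and 456 in replicate 2 over 10.3 Mb of windows. Of these, 86.9% and 50% overlapped a peak of the other library, against 85.7% and 51.4% of the distal peaks of all genes. The median signal was 1.10 and 0.821, against 1.18 and 0.901. A footprint lay inside 91.8% and 87.1%, against 91.7% and 88.4%. Introns held 203 of the 268 (75.7%) and 381 of the 456 (83.6%), intergenic sequence 38 and 47, and coding exons 21 and 20. The nearest protein-coding TSS was that of the guidance gene for 81.0% and 80.5%, and the others lay closer to another gene. Locations and nearest TSSs were not counted over the distal peaks of all genes, so these shares have no comparison. The neighbours Robo3 and Robo4 shared 2 distal peaks in each library.

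The strongest distal region found in both libraries lay beside Sema3b. Its peak at chr9:107612721-107612900, shown above, had a signal of 10.0 in replicate 1 and 5.65 in replicate 2 (7.83 ± 3.09), above 99.7% and 98.0% of all peaks of the libraries. It lay in intergenic sequence 3492 bp from the Sema3b TSS, and among all GENCODE transcripts a TSS of Gnai2 lay nearer, at 3147 bp. The cAMP response element word TGACGTCA stood at positions 62 to 69, inside a footprint of both libraries. That word was in 0.522% and 0.435% of all distal peaks, and Sema3b was the only guidance gene with a distal match.

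The next 5 regions were weaker by their mean, and 4 of them were higher in replicate 1. A peak upstream of Epha4 at chr1:77516361-77516520 had 7.63 in replicate 1 and 4.55 in replicate 2 (6.09 ± 2.18), 1273 bp from the TSS and 1081 bp from that of the long noncoding RNA Gm28386. A peak upstream of Sema4a at chr3:88467241-88467400 had 7.49 and 2.48 (4.99 ± 3.54), 6059 bp from the TSS. An intronic peak of Efna3 at chr3:89316921-89317100 had 5.24 and 4.20 (4.72 ± 0.732). The intronic Sema3b peak described above followed with 4.48 ± 2.77. A peak in an intron of Slit1 at chr19:41697501-41697740, 45752 bp from the nearest TSS, had 3.78 and 5.09 (4.44 ± 0.927) and was higher in replicate 2. The SDs of these 5 overlapped.

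The consensus of CTCF, the main insulator protein, lay in a footprint at every distal match of the guidance genes. It was in 20 of 268 guidance distal peaks in replicate 1 (7.46%) and 16 of 456 in replicate 2 (3.51%), against 8.32% and 4.51% of all distal peaks. The midpoint of the match lay in a footprint in 20 of 20 and 16 of 16, against 98.5% and 94.7% over all distal peaks. Genes with a match in both libraries numbered 15, among them Slit1, Slit3, Robo1, Ephb2, Efna5, Plxna2 and Plxna4. The Slit1 region shown above, with a signal of 4.005 in replicate 1 and 2.15 in replicate 2, holds the match at positions 94 to 107 and the NFI word TTGGCA on the − strand at 23 to 28, both wholly inside footprints of both libraries. No guidance promoter peak held the CTCF consensus. The AP-1 word TGANTCA was in 8.58% and 15.4% of the guidance distal peaks, against 12.3% and 18.3% of all, the E-box CAGCTG in 17.9% and 17.1%, against 16.9% and 17.7%, and the NFI word in 18.7% and 18.9%, against 15.6% and 18.5%.

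Among 56 guidance genes outside the symbol rule, those that encode intracellular proteins had the highest median promoter signal. Of the 56 genes, 52 had a promoter peak in replicate 1, 50 in replicate 2 and 49 in both. The shares over all genes were 60.7%, 61.2% and 58.7%. The median signal was 4.37 in replicate 1 and 3.47 in replicate 2 over the 33 of 34 effector genes with a peak, 2.00 and 1.55 over the 13 of 15 netrin and RGM ligand and receptor genes with a peak in each library, and 1.45 and 1.63 over the 6 and 4 of 7 co-receptor genes with a peak. All genes with a promoter peak had 3.82 and 2.88, which of these groups the effector genes alone exceeded. The effector genes had a median CpG ratio of 0.818, against 0.571 over all genes, and their signal at matched CpG was not tested. The ligands and receptors of the symbol rule, at 2.01 and 1.54, lay near the netrin group. The highest were the kinase gene Cdk5 (9.12 ± 1.96), the Slit-Robo GTPase-activating protein gene Srgap2 (8.44 ± 0.302), the RGM gene Rgmb (8.16 ± 0.474), the adaptor gene Nck1 (7.89 ± 0.626) and the collapsin response mediator gene Dpysl2 (7.59 ± 0.0234). Draxin, Met and Mical3 had no promoter peak in either library, and Ntn1, Ntn4, L1cam and Kdr had one in a single library. Apart from Ephb3, no ligand or receptor of the symbol rule reached the mean signal of Dpysl2.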

How the data were processed

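DNase-seq had been made from 2 libraries of left cerebral cortex. The authors deposited, per library, 2 peak lists with a signal per peak, a footprint list with a constant score, left unused, and per-base q-values (false discovery rates) up to 0.05, all on mm10 per the file headers. Per the deposited notes, calls were made in each library on that library's filtered alignments. Not given in the sources used here are the aligner, the callers, their versions and the scaling of the signal. The reference is C57BL/6J, so reads from CAST alleles may align less well.

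Each library's shorter peak list was the main list, and the longer was an alternative. Genes and TSSs came from the GENCODE M21 basic annotation (chromosomes 1 to 19, X and Y), and peaks of the libraries were shared when they overlapped by at least 1 bp. CpG standardisation of the promoter share weighted all genes by the deciles of the guidance genes. For signal and distal density, each guidance gene was given the all-gene median of its decile, and the median of these values was taken. Python 3.11.15, numpy 2.4.6, pandas 2.3.3 and matplotlib 3.10.9 were used. The interval code was tested on simulated data. The members, lists, motif words and choices were set with earlier results of these data known. Named genes were the 10 strongest promoters, the highest and lowest of each family, all without a promoter peak in both libraries, the 6 highest by distal density, distal number, shared distal signal and promoter footprints, and from other guidance genes the 5 strongest and those without a peak. Any further gene was named after its values were seen. With a single group no test was made. Allele-specific values were not analysed here.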

Additional observations from a re-analysis of the deposited data

How the results depend on the processing

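No paired analysis was possible because the series has a single group. Leaving out either library leaves only the values of the other, which are those given above. The number of guidance genes with a promoter peak was 51 or 52, and the median promoter signal was 1.54 to 2.01. The distal density was 3.49 to 5.23 per 100 kb, and 82.9% to 84.8% of the promoter peaks had a footprint. Shares of shared peaks need both libraries, so they cannot be checked in this way. By the library whose peaks were counted, they were 82.1% to 87.5% for promoter peaks and 50% to 86.9% for distal peaks. The mean number of guidance genes with a promoter peak, 51.5, ranged over 43.5 (signal of at least 1) to 54.5 (wider lists) and stayed above the share of all genes wherever both were counted (main and wider lists, equal numbers of peaks and signal of at least 1). The mean median signal of 1.78 became 2.16 with peaks of signal at least 1 and 2.21 with all GENCODE transcripts, an alternative chosen after seeing the data. The distal density of 4.36 became 8.08 with the wider lists and 2.20 with signal of at least 1. The shared promoter peaks, 84.8%, became 89.5% with signal of at least 1 and 58.1% with a reciprocal overlap of 50%. The promoter peaks with a footprint, 83.9%, became 86.5% with a window of 500 bp, 82.3% with 2 kb, 80.7% with the wider lists, 88.7% with equal numbers of strongest peaks and 98.0% with signal of at least 1. Of the 50 genes open in both libraries, Epha10, Robo3 and Sema4g were no longer so with a 500 bp window, and Efnb3, Plxna3, Sema3c and Sema5a with equal numbers of peaks. With signal of at least 1 these 4 and Ephb4, Sema3e, Sema3f, Sema5b and Slit2 were no longer open in both. The cause of these shifts was not tested. Read totals were not used, so no counting interval is given.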
